A study of Homo sapiens with 6 samples.

Results

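Long non-coding RNAs were taken by name, as symbols of 6 kinds: LINC plus a number (intergenic), a final -AS (antisense), -IT (intronic) or -DT (divergent) tag, SNHG plus a number (snoRNA host genes) and MIR with a final HG (microRNA host genes). Of 14884 symbols measured, 1095 had such a name, and 86 of these were selected on a mean log2 intensity of at least 5 over all 6 arrays. The 86 are 38 antisense, 30 LINC, 9 divergent, 7 SNHG and 2 microRNA host genes, and no intronic RNA reached the level. RefSeq types all 86 as lncRNA.

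The RNA came from MM.1S, an established line of human multiple myeloma, a cancer of antibody-secreting plasma cells. Every sample had first received Cfz, as the labels name it, for 1 h. For the next 12 h, 3 samples were kept with the solvent DMSO and 3 with 10 µM ATRA (all-trans retinoic acid, a vitamin A derivative that binds retinoic acid receptors). Cells without Cfz were not analysed here, so each value describes ATRA after Cfz. The labels do not say whether the samples of a group were separate cultures, and p-values therefore measure only the spread between these samples, which may be technical.

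Long non-coding RNAs are transcripts without a long reading frame, usually capped, spliced and polyadenylated like mRNA. Many start beside a coding gene: divergent ones leave a shared promoter region in the opposite direction, and antisense ones lie on the other strand of a gene or beside it. SNHG genes carry small nucleolar RNAs in their introns, and their spliced exons are commonly degraded by nonsense-mediated decay. Microprocessor cuts microRNAs out of their host transcripts, and the nuclear exosome removes many divergent RNAs soon after they are made.

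The 6 arrays had median intensities of 9.40 to 9.76, and log2 values correlated at 0.990 to 0.992 within groups and 0.985 to 0.987 between them (across genes, which are not independent replicates). Of 11 plasma cell markers measured, 8 had a mean log2 intensity of at least 5, among them CD38 (9.26), SDC1 (9.99), IRF4 (10.81) and MZB1 (10.95), while POU2AF1 (4.13), CD27 (3.88) and FCRL5 (2.48) did not. Of 12 markers of T cells, NK cells, monocytes and stroma, which these cells should lack, 11 lay under 5 and S100A9 lay at 5.23. Among the 86 RNAs, 14 had a mean under that of S100A9, so for these the level alone does not separate signal from background. Within 0.05 of the threshold lay 5 RNAs inside, the nearest being H1-10-AS1 (5.002) and GAS6-DT (5.009), and 5 outside, the nearest being TOLLIP-DT (4.97) and LINC00852 (4.96). The threshold was met on the mean of both groups: 8 RNAs, MIR22HG and GABPB1-AS1 among them, were under 5 with DMSO, and 3, FEZF1-AS1 among them, were under 5 with ATRA. These 11 met it only through the group where they were high, and so had to differ in that direction.

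With ATRA, 9 of the 86 long non-coding RNAs rose, 2 fell and 75 did not pass the test (limma, Benjamini-Hochberg adjustment over all 14884 symbols, adjusted p of at most 0.05). LINC00582, GABPB1-AS1, LINC00891, LINC00996, URB1-AS1, LINC00667, WAC-AS1, SNHG5 and MIR22HG rose by 0.47 to 1.01 on the log2 scale. FEZF1-AS1 and PCNA-AS1 fell by 1.32 and 1.02 on the log2 scale. FEZF1-AS1, MIR22HG and GABPB1-AS1 are among the 11 RNAs that met the level through 1 group only, and of the 75 at 5 in both groups, 7 rose and 1 fell. Over all symbols 3.8% passed, 1.73% upward and 2.07% downward. Among the 5907 symbols with a mean of at least 5, it was 7.94%, with 206 (3.49%) higher and 263 (4.45%) lower. Among the 5555 protein-coding symbols at that level it was 7.97%, with 3.37% higher and 4.61% lower. Whichever array was left out, only 1 to 3 of the increases and 1 or 2 of the decreases still passed. FEZF1-AS1 and LINC00891 passed in all 6 of these fits.

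**Figure D1:**
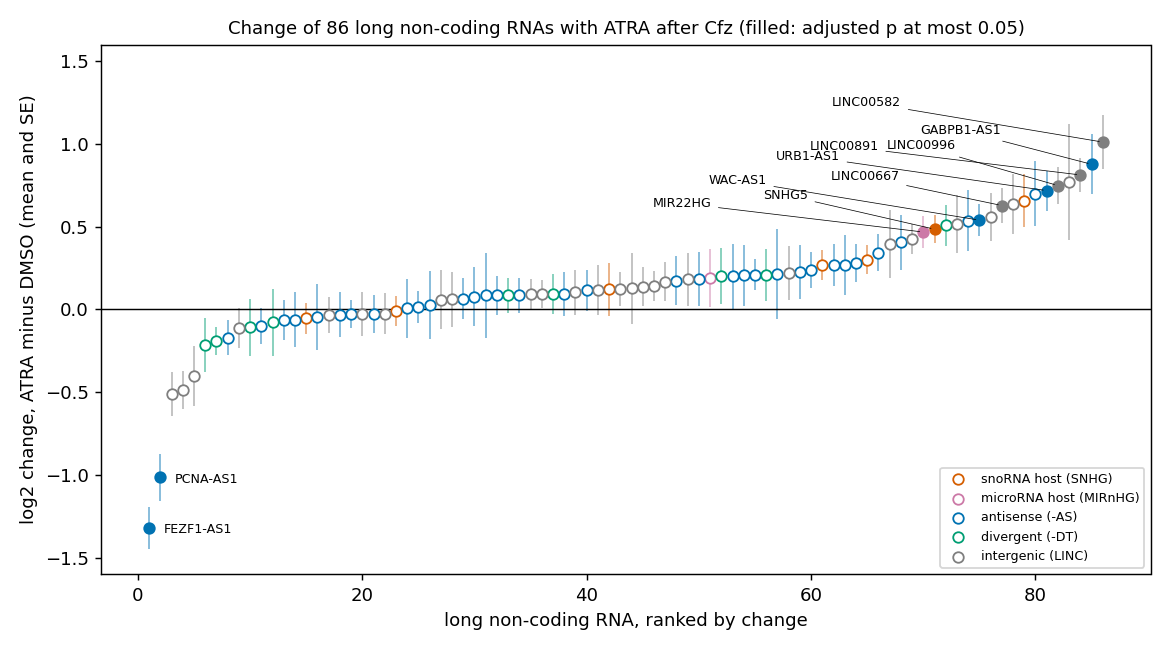
Log2 change with ATRA (y axis, mean with SE) of the 86 long non-coding RNAs, ranked on the x axis and coloured by kind. Filled points passed the test: 9 lie between 0.47 and 1.01, and 2 lie at -1.02 and -1.32.

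Most of the 86 RNAs had a higher mean with ATRA, whether or not they passed. The mean was higher for 63 RNAs (73.3%) and lower for 23, and the median change was 0.13 (quartiles -0.02 and 0.30). Of the 75 RNAs at 5 in both groups, 55 were higher, with a median of 0.12. Of the 5555 protein-coding symbols with a mean of at least 5, 37.5% were higher, with a median of -0.07. Of all 14884 symbols 47.1% were higher (median -0.01), and of all 5907 with a mean of at least 5 it was 38.9% (median -0.06). The median log2 intensity of the 86 RNAs was 5.91, 5.80 and 5.81 on the DMSO arrays and 5.97, 5.98 and 5.98 on the ATRA arrays. All 3 ATRA arrays thus lay above all 3 DMSO arrays. These medians include the 8 RNAs under 5 with DMSO and the 3 under 5 with ATRA, and medians of the 75 were not computed. Over all probe sets the median intensity was 9.61, 9.40 and 9.49 with DMSO and 9.69, 9.57 and 9.76 with ATRA, with overlap. The values of the 2 groups did not overlap for 25 RNAs that were higher and 5 that were lower, against 9.86% and 14.8% of all symbols and 14.1% and 27.8% of the 5907 at that level. An unadjusted p under 0.05 was reached by 26 of the 86 RNAs, against 17.9% of all symbols, 29.4% of the 5907 and 29.7% of the protein-coding ones among them. Among the 75 at 5 in both groups, 20 higher and 4 lower ones did not overlap, and 21 reached this unadjusted p.

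By kind, the mean was higher for 28 of 38 antisense RNAs (median 0.10), 23 of 30 LINC RNAs (0.13), 5 of 9 divergent RNAs (0.09), 5 of 7 SNHG RNAs (0.27) and both microRNA hosts (0.33). Among RNAs with a level from 5 to under 6 it was 35 of 45, and at 6 or more 28 of 41. The range from 5 to under 6 holds the 8 RNAs under 5 with DMSO and the 3 under 5 with ATRA. The direction of these was set by how they met the level. Of 1009 symbols of the same name pattern under 5, 57.4% were higher, with a median of 0.04. Another 31 symbols with a mean of at least 5 are typed as lncRNA but carry other names, and 16 of these were higher, with a median of 0.07.

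**Figure D2:**
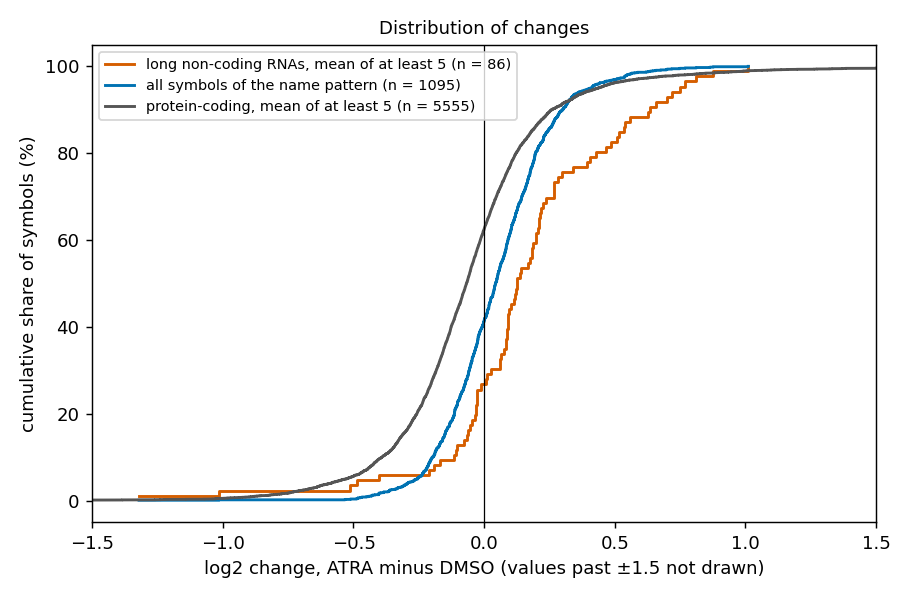
Cumulative share of symbols (y axis, percent) against the log2 change with ATRA (x axis). Around a change of 0 the curve of the 86 long non-coding RNAs (median 0.13) lies to the right of that of 1095 symbols of the name pattern (median 0.04) and of that of 5555 protein-coding symbols (median -0.07).

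FEZF1-AS1, an antisense RNA at the gene of the zinc-finger repressor FEZF1, had an intensity of 75.2, 74.8 and 80.3 on the DMSO arrays and 26.5, 36.2 and 30.2 on the ATRA arrays. The groups lay far apart, and the highest ATRA array was under every DMSO array. The mean was 31.0 ± 4.86 with ATRA against 76.8 ± 3.05 with DMSO (SD, n = 3), with a log2 change of -1.32 (SE 0.128, limma adjusted p = 0.00264). The mean log2 intensity with ATRA was 4.94, under the level of 5, so no fold is given. FEZF1 itself had 280, 257 and 257 with DMSO and 161.3, 186.2 and 175.5 with ATRA, a log2 change of -0.60 (limma adjusted p = 0.0191). Both fell. The call for FEZF1 was lost when any of 5 of the 6 arrays was left out, with an adjusted p of up to 0.0813.

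PCNA-AS1 is antisense to PCNA, the sliding clamp of replicating DNA, and the 2 genes overlap on opposite strands. Its intensity was 115, 96.4 and 104.6 with DMSO and 59.7, 54.96 and 42.8 with ATRA. No ATRA array reached a DMSO array, and the means were 52.5 ± 8.68 and 105.4 ± 9.34 (SD, n = 3), a 2.02-fold decrease on the means of the log2 values, from which all folds are taken (log2 change -1.02, SE 0.144, limma adjusted p = 0.0121). PCNA fell from 858, 847 and 868 to 531.3, 505.5 and 527.6, a log2 change of -0.72 (limma adjusted p = 0.00579). The log2 ratio of PCNA-AS1 to PCNA was lower on every ATRA array, by 0.30 on average. Without DMSO array 1 or DMSO array 3 the call for PCNA-AS1 was lost, with an adjusted p of up to 0.0566, while PCNA passed in all 6 such fits. Probe sequences were not used here, so how far RNA of the other strand reached each probe set was not tested.

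The sequence before the start of PCNA-AS1 held 2 E2F-type motifs, the letters bound by the factors that drive S-phase genes. The stretch is shown for these letters, and a role of E2F in the fall of PCNA-AS1 was not tested. It is chr20:5119336-5119395 (GRCh38.p14, RefSeq, plus strand). Capitals mark TTTCCCGC and TTTGGCGC, 243 and 217 bases before the start.
PCNA-AS1: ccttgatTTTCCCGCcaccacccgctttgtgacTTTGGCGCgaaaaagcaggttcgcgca

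Windows of 300 bases around RefSeq starts were found for 70 of the 86 RNAs. TTTCCCGC was in 5.71% of these 70 in 1.98% of all 27305 genes with a window and in 3.77% of the protein-coding symbols with a mean of at least 5, on either strand. TTTGGCGC was in 4.29%, 0.795% and 1.43%. PCNA-AS1 was the 1 RNA with a call among the 9 with a window that held either motif. A match is a description of letters and not a binding site.

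URB1-AS1, WAC-AS1 and MIR22HG rose, and each starts opposite a coding gene whose window overlaps its own. URB1, a nucleolar protein of ribosome biogenesis, WAC, an adaptor of histone H2B ubiquitination, and WDR81, an endosomal protein, showed no such change. The starts of the 2 genes of a pair lie 121 bases apart for URB1-AS1 and URB1, 425 for WAC-AS1 and WAC, and 313 for MIR22HG and WDR81. The sequences are shown because both genes of a pair start here. Capitals mark bases that lie in both genes' windows and between the starts, and lower case the rest of the RNA's own window. The coordinates, in GRCh38.p14 from RefSeq, are chr21:32393013-32393182 (plus strand) for URB1-AS1, chr10:28532305-28532604 (minus strand) for WAC-AS1 and chr17:1716161-1716460 (minus strand) for MIR22HG.
URB1-AS1: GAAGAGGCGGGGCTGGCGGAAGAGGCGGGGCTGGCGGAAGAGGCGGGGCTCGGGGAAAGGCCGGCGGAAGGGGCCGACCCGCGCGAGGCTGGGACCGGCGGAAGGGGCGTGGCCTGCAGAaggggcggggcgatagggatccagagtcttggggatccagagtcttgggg
WAC-AS1: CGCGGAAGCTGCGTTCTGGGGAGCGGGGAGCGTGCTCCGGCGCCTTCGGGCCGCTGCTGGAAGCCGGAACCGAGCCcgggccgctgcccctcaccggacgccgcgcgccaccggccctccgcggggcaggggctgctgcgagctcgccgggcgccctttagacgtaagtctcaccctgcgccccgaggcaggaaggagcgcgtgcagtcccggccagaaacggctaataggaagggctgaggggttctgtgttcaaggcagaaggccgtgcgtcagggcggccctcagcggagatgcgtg
MIR22HG: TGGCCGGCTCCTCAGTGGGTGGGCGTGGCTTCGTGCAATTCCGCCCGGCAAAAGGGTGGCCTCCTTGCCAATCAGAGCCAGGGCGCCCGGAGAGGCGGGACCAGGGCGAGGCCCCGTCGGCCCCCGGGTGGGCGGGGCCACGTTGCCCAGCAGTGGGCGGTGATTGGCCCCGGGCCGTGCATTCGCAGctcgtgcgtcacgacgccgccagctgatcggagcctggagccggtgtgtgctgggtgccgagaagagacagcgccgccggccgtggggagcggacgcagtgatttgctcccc

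URB1-AS1 had an intensity of 45.5, 57.2 and 56.1 with DMSO and 85.7, 93.7 and 80.9 with ATRA. The groups did not overlap, and the mean rose 1.64-fold, from 52.9 ± 6.46 to 86.7 ± 6.45 (SD, n = 3; log2 change 0.72, SE 0.121, limma adjusted p = 0.0229). URB1 had 147, 154 and 167 with DMSO and 165, 156 and 135 with ATRA. These values overlapped, with a log2 change of -0.04, which turned to 0.01 after quantile normalization. The log2 ratio of URB1-AS1 to URB1 was higher on every ATRA array, by 0.76 on average.

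WAC-AS1 had an intensity of 35.4, 41.9 and 37.7 with DMSO and 55.04, 54.9 and 56.8 with ATRA. It rose 1.45-fold with no overlap (log2 change 0.54, SE 0.0973, limma adjusted p = 0.0291). WAC had 97.0, 97.8 and 93.4 with DMSO and 89.7, 88.1 and 101.8 with ATRA, a log2 change of -0.05 with overlapping groups. The log2 ratio of WAC-AS1 to WAC was higher by 0.59.

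MIR22HG, the host transcript of the microRNA miR-22, had an intensity of 30.35, 27.8 and 29.3 with DMSO and 39.5, 43.3 and 38.2 with ATRA. It rose with no overlap (log2 change 0.47, SE 0.0944, limma adjusted p = 0.0427). Its mean log2 intensity was 4.86 with DMSO and 5.10 over all arrays, under that of S100A9, so no fold is given. WDR81 had 29.9, 39.5 and 38.3 with DMSO and 35.1, 40.3 and 33.0 with ATRA, a log2 change of 0.02 with overlapping groups. S100A9 had means of 32.6 with DMSO and 44.4 with ATRA, so the level of WDR81 does not separate it from background either. Left out in turn, every array cost URB1-AS1 and MIR22HG their calls, with an adjusted p of 0.0508 to 0.0796 and 0.0848 to 0.142. WAC-AS1 lost its call in 5 of these 6 fits, with an adjusted p of up to 0.104. MIR22HG also lost it when limma's variance was fitted with a trend and robustly.

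GABPB1-AS1, an antisense RNA at the gene of a subunit of the ETS factor GABP, had an intensity of 35.9, 24.3 and 32.1 with DMSO and 47.9, 67.2 and 53.9 with ATRA. The ATRA arrays were all higher (log2 change 0.88, SE 0.182, limma adjusted p = 0.0467). The mean log2 intensity with DMSO was 4.92, under the level of 5, so no fold is given. GABPB1 was not analysed here. USP8, a deubiquitinase and the nearest coding gene measured, had 218, 238 and 210 with DMSO and 227, 206 and 234 with ATRA. Its log2 change was 0.00 and its groups overlapped. GABPB1-AS1 lost its call without any 1 of the 6 arrays (adjusted p 0.0763 to 0.123) and with array weights.

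**Figure D3:**
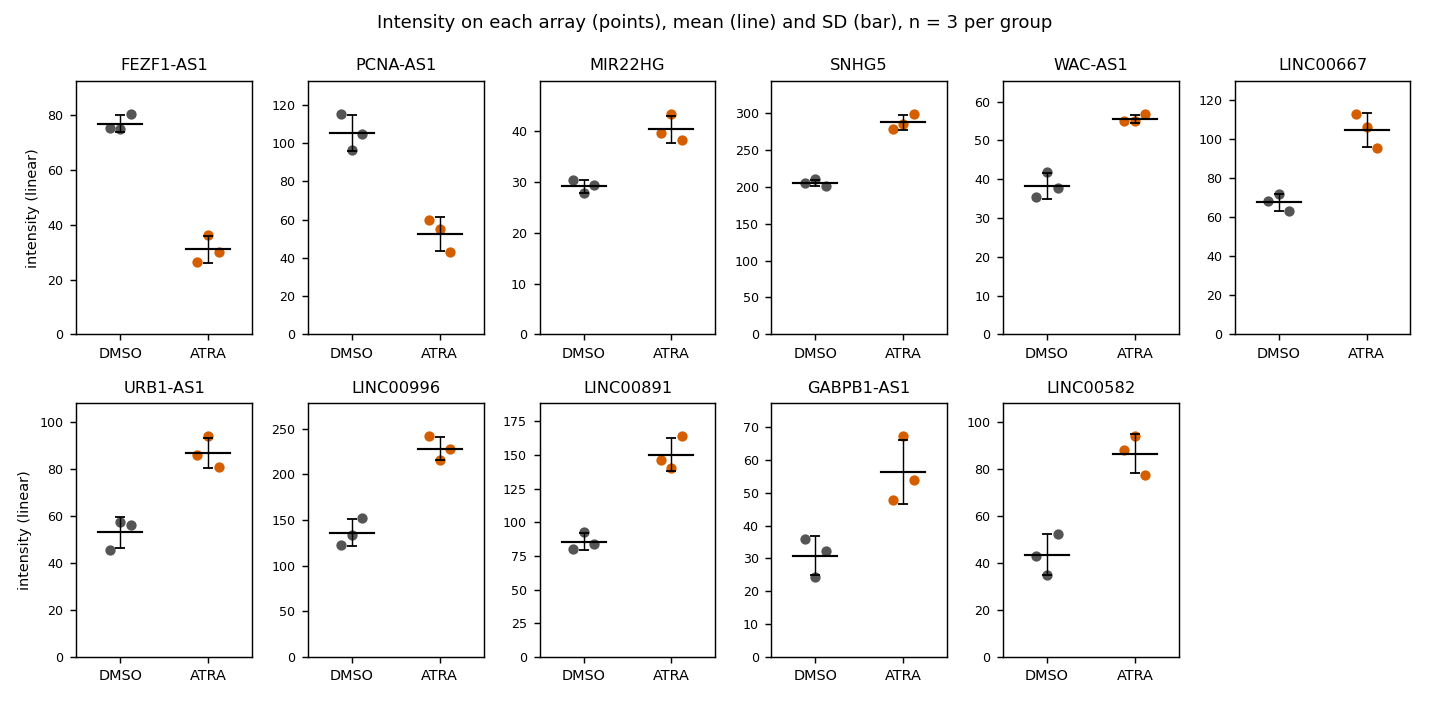
Intensity (y axis, linear, from 0) on each array for the 11 long non-coding RNAs that passed the test, in DMSO and ATRA (x axis, 3 arrays each). Points are arrays, lines are means and bars are SD; in each panel the groups do not overlap.

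Of the 30 LINC RNAs, 4 rose and 26 did not pass. LINC00582 had an intensity of 43.2, 34.9 and 52.4 with DMSO and 88.3, 94.0 and 77.8 with ATRA. Every ATRA array was higher, and the mean rose 2.02-fold (log2 change 1.01, SE 0.161, limma adjusted p = 0.0183). No measured coding gene lies within 100 kb of it. LINC00891 had 80.2, 92.6 and 83.5 with DMSO and 146.5, 140.3 and 163.6 with ATRA. It rose 1.76-fold with no overlap (log2 change 0.81, SE 0.105, limma adjusted p = 0.00879), and its other probe set gave a log2 change of 0.78. CXorf49, beside it, had a mean log2 intensity of 3.60, within the range of the markers these cells should lack, and did not pass (limma adjusted p = 0.0915).

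LINC00996 had an intensity of 123, 133.8 and 151.8 with DMSO and 241.5, 215.6 and 227.4 with ATRA, a 1.68-fold increase with no overlap (log2 change 0.75, SE 0.110, limma adjusted p = 0.0135). Its neighbour ZNF775, a zinc-finger gene with a mean log2 intensity of 4.31, did not pass (log2 change 0.52, limma adjusted p = 0.134). LINC00667 had 68.1, 71.7 and 63.2 with DMSO and 112.7, 106.0 and 95.3 with ATRA, a 1.55-fold increase with no overlap (log2 change 0.63, SE 0.104, limma adjusted p = 0.0212). AKAIN1, its neighbour, had a mean log2 intensity of 4.13 and did not pass (log2 change -0.01). When 1 array was left out, the call was lost in 4 of 6 fits for LINC00582 (adjusted p up to 0.0759), 4 for LINC00996 (0.0589) and 5 for LINC00667 (0.0847).

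Among LINC RNAs that did not pass, LINC02245 (0.77), LINC00938 (0.63) and LINC00920 (0.56) had the largest log2 differences. LINC02245 had 29.5, 42.8 and 14.9 with DMSO and 52.7, 43.0 and 40.9 with ATRA, so its groups overlapped. Its mean log2 intensity with DMSO was 4.73, so its direction was set by how it met the level. LINC00987 had the highest level, with 3026, 3009 and 3300 with DMSO and 2124, 2009 and 2555 with ATRA. Its groups did not overlap, with a log2 change of -0.49 (limma adjusted p = 0.0734). Its second probe set, with a mean log2 intensity of only 4.39, gave -0.14. LINC01347 (0.14) and LINC00999 (0.12) were the next by level. Of the 86 RNAs, 19 had several probe sets, and these did not always move alike. LINC00933 gave -0.51 and, from a probe set with a mean log2 intensity of 3.96, 0.14. The 3 probe sets of LINC01000 ranged from -0.58, at a mean of 5.20, to 0.09. Means of 3.96 and 5.20 lie within the range of the markers these cells should lack.

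SNHG5, the host of the box C/D snoRNAs SNORD50A and SNORD50B, was the 1 SNHG gene of 7 that passed. Its intensity was 204, 210 and 201 with DMSO and 278, 284 and 298 with ATRA. The spread within groups was small, and the mean rose 1.40-fold, from 205 ± 4.62 to 287 ± 10.3 (SD, n = 3; log2 change 0.48, SE 0.0851, limma adjusted p = 0.0259). Each array left out cost the call (adjusted p 0.0758 to 0.0984).

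SNHG20, SNHG8 and SNHG33 had higher values on all 3 ATRA arrays without passing. With a trend and robust variance in limma, SNHG20 and SNHG8 passed. SNHG20 had 112, 161 and 141 with DMSO and 185, 231 and 232 with ATRA (log2 change 0.66, limma adjusted p = 0.0768). SNHG8 had 520, 507 and 484 with DMSO and 612, 648 and 600 with ATRA (0.30, limma adjusted p = 0.126). SNHG33 had 63.6, 59.4 and 62.4 with DMSO and 79.6, 71.7 and 71.97 with ATRA (0.27, limma adjusted p = 0.185). In SNHG10 (0.12), SNHG17 (-0.01) and SNHG16 (-0.05) the groups overlapped, and the sign of SNHG17 turned after quantile normalization (0.03). MIR550A3HG, the other microRNA host, had a log2 change of 0.19 with overlapping groups.

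**Figure D4:**
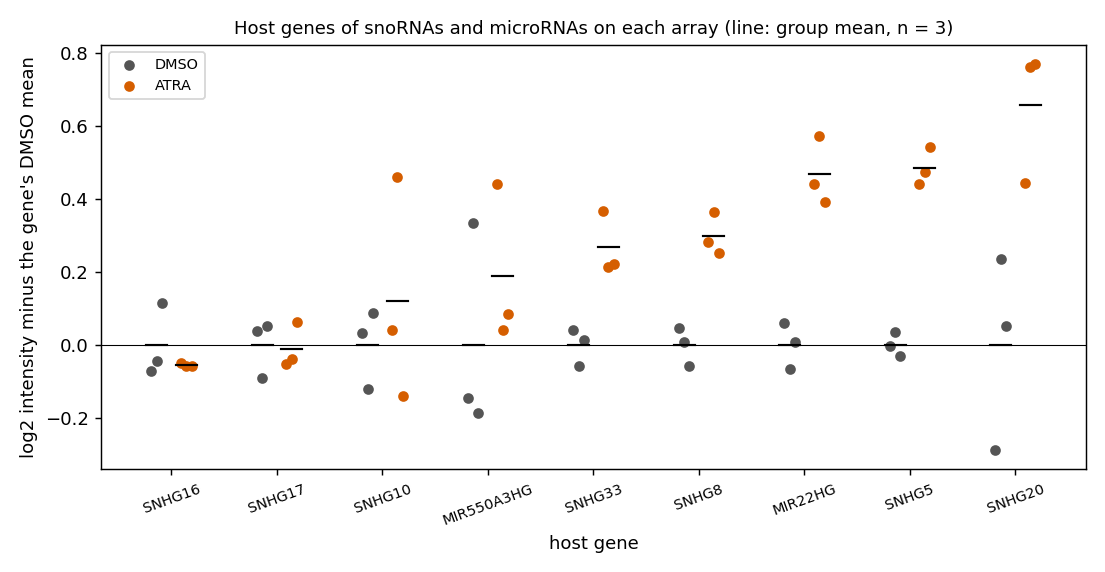
Log2 intensity minus the gene's DMSO mean (y axis) on each of the 6 arrays for 7 SNHG genes and 2 microRNA hosts (x axis). Points are arrays and lines are group means; the ATRA arrays lie above all DMSO arrays for SNHG5, SNHG8, SNHG20, SNHG33 and MIR22HG.

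In RefSeq, 12 of the 86 RNAs hold 23 small RNAs in their spans, among them all 7 SNHG genes, and 2 of the small RNAs were measured. SCARNA16, inside SNHG20, had a log2 change of 0.25 (limma adjusted p = 0.385). MIR550A3, inside MIR550A3HG, had a level of 3.21 and a change of -0.21 (limma adjusted p = 0.839). Both overlapped between groups.

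Many snoRNA hosts and ribosomal protein genes start at a C within a pyrimidine run, the terminal oligopyrimidine start through which mTOR signalling controls translation. The starts of 4 SNHG genes are shown to compare these first bases. Each line gives 25 bases before and 25 after the RefSeq start in GRCh38.p14, with the first 10 transcribed bases in capitals: chr6:85678709-85678758 (minus strand) for SNHG5, chr17:77088618-77088667 (plus strand) for SNHG20, chr4:118278737-118278786 (plus strand) for SNHG8 and chr17:76557739-76557788 (plus strand) for SNHG16.
SNHG5: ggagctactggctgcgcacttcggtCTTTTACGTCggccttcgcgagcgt
SNHG20: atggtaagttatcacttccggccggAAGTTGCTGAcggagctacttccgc
SNHG8: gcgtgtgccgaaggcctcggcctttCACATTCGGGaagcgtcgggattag
SNHG16: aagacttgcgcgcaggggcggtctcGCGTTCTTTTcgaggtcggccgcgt

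A start at C followed by at least 4 pyrimidines was found in 1 of the 7 SNHG genes, SNHG5. It was in 1.43% of the 70 RNAs with a window and in 5.14% of all 27305 genes.

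Of 38 antisense RNAs, 3 rose, 2 fell and 33 did not pass. Among those that did not pass, TMEM44-AS1 (0.70), DHRS4-AS1 (0.54) and THUMPD3-AS1 (0.40) had the largest log2 differences, with limma adjusted p of 0.116, 0.189 and 0.254. The groups of TMEM44-AS1 and DHRS4-AS1 did not overlap, and those of THUMPD3-AS1 did. TMEM44-AS1 had a mean log2 intensity of 4.90 with DMSO, so its direction was set by how it met the level. By level, USP30-AS1 (-0.03), ASB16-AS1 (0.01) and PITPNA-AS1 (0.28) were the highest. The sign of USP30-AS1 turned after quantile normalization (0.02) and that of ASB16-AS1 with a common median (-0.00067).

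None of the 9 RNAs named as divergent (-DT) passed by limma, and 1 had an unadjusted p under 0.05. URB1-AS1, WAC-AS1 and MIR22HG, which also start opposite a coding gene, are counted under other kinds. With a trend and robust variance in limma, SEPSECS-DT passed. SEPSECS-DT had 47.8, 38.0 and 42.2 with DMSO and 61.6, 54.3 and 66.3 with ATRA, with no overlap (log2 change 0.51, limma adjusted p = 0.0762). TNFRSF10A-DT (-0.21), GAS6-DT (0.21), PPP3CA-DT (-0.11) and RAB30-DT (0.09) had overlapping groups. The direction of GAS6-DT, with a mean log2 intensity of 4.90 with DMSO, was set by how it met the level. PAXIP1-DT was lower on all 3 ATRA arrays (-0.19, limma adjusted p = 0.282).

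Each RNA was paired with the coding gene of its own name or, where that was not measured, with the nearest measured one within 100 kb. This gave 67 pairs with 66 neighbours. Both had a higher mean in 23 pairs and both a lower mean in 14. In 25 the RNA was higher and the neighbour lower, and in 5 the reverse. The 25 include GAS6-DT, LINC01023 and LINC00426, whose direction was set by how they met the level. The mean was higher for 73.3% of the 86 RNAs and for 37.5% of protein-coding symbols with a mean of at least 5. An excess of the 25 over the 5 therefore shows no link between neighbours, and counts for unrelated pairs were not computed. The median change was 0.12 for the RNAs and -0.05 for the neighbours. Both passed in 2 pairs (FEZF1-AS1 with FEZF1, and PCNA-AS1 with PCNA), the RNA alone in 7 and the neighbour alone in 6.

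In 24 pairs the spans of the genes overlap, and 17 of these had the same sign, with Pearson's r of 0.64 and Spearman's rho of 0.59 across pairs. Without PCNA-AS1 and FEZF1-AS1, r was 0.31 and rho 0.47. In the 43 pairs without overlap, 20 had the same sign and r was 0.06. Pairs share arrays, so these are descriptions. Of 9 pairs with overlapping divergent windows, 2 had the same sign, and in 6, GAS6-DT among them, the RNA was higher and the neighbour lower. In 3 of the 9 the RNA alone passed: URB1-AS1, WAC-AS1 and MIR22HG.

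Of the 66 neighbours, 2 rose and 5 fell, against 1.73% and 2.07% of all symbols and 3.37% and 4.61% of protein-coding symbols with a mean of at least 5. With 1 array left out 2 rose and 2 or 3 fell. With the neighbour taken by start distance, which gave only 42 pairs, 0 rose and 2 fell by limma. PRR15, beside MIR550A3HG, rose by 2.07 on the log2 scale, with 32.5, 34.2 and 52.5 on the DMSO arrays and 185.7, 134.7 and 171.9 on the ATRA arrays. TRAF5, a signalling adaptor of TNF receptors beside LINC00467 (0.22), rose by 1.04. HMCES, a sensor of abasic DNA sites beside H1-10-AS1 (-0.05), fell by 0.98. PAXIP1, a DNA damage response protein beside PAXIP1-DT, fell by 0.63, and GAS6, a ligand of TAM receptor kinases beside GAS6-AS1 (-0.06) and GAS6-DT, fell by 0.53. The limma adjusted p of these 5 ran from 0.00243 to 0.0405, and they were named after their values were seen.

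The log2 ratio of RNA to neighbour did not overlap between groups in 24 of 67 pairs, 15 of them higher with ATRA. Single symbols did not overlap in 24.7% of all cases and in 41.9% at a mean of at least 5; the share for ratios of other gene pairs was not computed. In an exact two-sided permutation test of each ratio, 3 arrays against 3 cannot go below p = 0.1, and the smallest p adjusted over the 67 pairs was 0.279.

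**Figure D5:**
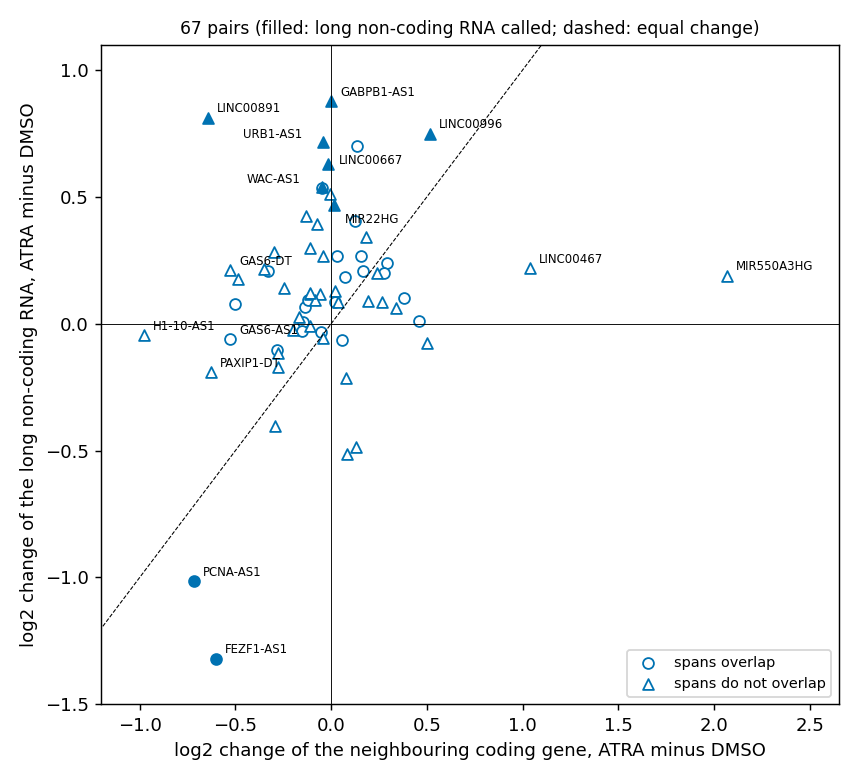
Log2 change of the long non-coding RNA (y axis) against that of its coding neighbour (x axis) in 67 pairs. Circles mark overlapping spans, triangles the others, filled symbols an RNA that passed; FEZF1-AS1 and PCNA-AS1 lie low in both, and URB1-AS1, WAC-AS1 and MIR22HG lie high near a neighbour change of 0.

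The windows of the 70 RNAs had a median GC content of 63.8%, against 58.3% over all genes and 65.3% over protein-coding symbols with a mean of at least 5. AGGTCA, the letters of a nuclear receptor site on either strand, was in 15.7% of the 70 windows, 16.5% of all and 12.6% of those protein-coding symbols. GABPB1-AS1 was the 1 RNA with a call that held it. The retinoic acid response elements with spacers of 5 and 2 bases (DR5 and DR2) were in 0 of 70 windows, against 0.106% and 0.0513% of all. In the same order of the 70, all and protein-coding, CACGTG was in 8.57%, 8.77% and 13.6%, and CCGGAAGT in 5.71%, 4.948% and 11.95%. TATAAA was in 7.14%, 13.99% and 7.17%, CCAAT in 37.1%, 39.7% and 43.6%, and GGGCGG in 55.7%, 48.3% and 79.1%.

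The proteins that make and remove such RNAs were read from lists of their own, beside protein-coding symbols with a mean of at least 5, of which 37.5% had a higher mean, 4.61% fell and 29.7% had an unadjusted p under 0.05, with a median of -0.07. Of 12 microRNA processing proteins measured, 1 fell and 0 rose, with a median of -0.06. DGCR8, the RNA-binding partner of DROSHA in Microprocessor, had 72.9, 85.0 and 76.9 with DMSO and 45.01, 35.99 and 40.6 with ATRA. Its groups did not overlap (log2 change -0.95, limma adjusted p = 0.00697), and it passed whichever array was left out. Of 15 snoRNA-binding and snoRNP assembly proteins, 14 had a lower mean and 1 fell, with a median of -0.16. That 1 was TCOF1, a nucleolar factor of rRNA transcription (-0.44, limma adjusted p = 0.046), which lost its call without any 1 of the 6 arrays (adjusted p 0.106 to 0.141).

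By the same background, of 20 genes of the nuclear exosome and its adaptors, 15 had a lower mean and 0 passed by limma, with a median of -0.17 and 7 at an unadjusted p under 0.05. ZC3H18, which links capped RNA to the exosome, had a log2 change of -0.47 (limma adjusted p = 0.0509), and the core subunit EXOSC8 one of -0.43 (limma adjusted p = 0.0691). Of 15 nonsense-mediated decay factors, 13 had a lower mean and 0 passed by limma, with a median of -0.08 and 3 at an unadjusted p under 0.05. EIF4A3, the helicase of the exon junction complex, had -0.31 (limma adjusted p = 0.148), and XRN1, the 5′ to 3′ exonuclease, had 0.30 (limma adjusted p = 0.113). With a trend and robust variance in limma, ZC3H18, EIF4A3 and XRN1 passed.

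Of 29 further named non-coding RNAs, read from a list, 22 had a higher mean and 0 passed by limma, with a median of 0.13. An unadjusted p under 0.05 was reached by 5 of them, against 17.9% of all symbols, of which 47.1% had a higher mean. Only 15 of the 29 had a mean log2 intensity of at least 5. NUTM2A-AS1 (4.31) was under that level and has a name of the pattern. Of the 31 symbols at that level typed as lncRNA but with other names, 16 were higher, with a median of 0.07. LINC-PINT, a target of p53, had 43.2, 80.0 and 57.2 with DMSO and 124.4, 118.2 and 101.0 with ATRA, without overlap (log2 change 0.97, limma adjusted p = 0.0607), and it passed with a trend and robust variance. BDNF-AS, antisense to the neurotrophin gene BDNF, had a mean log2 intensity of 2.55, under the median of the markers these cells should lack (3.51), and did not pass (limma adjusted p = 0.0798).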

How the data were processed

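Total RNA of 6 MM.1S samples was labelled with a whole-transcript kit and read on 1-colour arrays, per the labels' protocols. For every probe set the deposited table holds linear intensity values made by the authors; RMA and limma are named in the submitters' processing notes. Genome build and versions were not given in the sources used here. Of 53617 probe sets, 16098 have 1 symbol, 0 have several and 37519 are unnamed here. Per symbol the probe set with the highest mean was kept, giving 14884 symbols. Log2 intensities of 3 ATRA and 3 DMSO arrays were fitted with limma 3.58.1 in R 4.3.3 (lmFit, eBayes), Benjamini-Hochberg adjusted over all symbols, with a threshold of 0.05; the fit was tested on simulated data. The number of arrays limits the precision.

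The 86 RNAs, the neighbours and the gene lists were chosen with earlier results of these data known. Named were all RNAs that passed with their neighbours, every SNHG and MIRnHG gene, per other kind the 3 highest levels and 3 largest differences that did not pass, the nearest 2 on each side of the level, up to 4 called genes or the 2 largest differences per list, and plasma cell markers. RefSeq tables of GRCh38.p14 gave types, neighbours and promoter windows, which run from 250 bases before to 50 after a start. Alternatives changed the normalization, filter, variance model, array weights, probe set rule, pseudocount, level, neighbour rule, replicate block and arrays. Intervals of single values were not computed, since arrays hold no counts.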

Additional observations from a re-analysis of the deposited data

How the results depend on the processing

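With the replicate number as a block, the 86 RNAs called higher and lower numbered 0 and 2, all genes 113 and 87, and neighbours 2 and 2. All 9 increases, FEZF1, DGCR8 (adjusted p 0.0519) and TCOF1 lost their calls under this block. The titles number the samples without saying whether equal numbers belong together. Same-numbered arrays correlated at 0.0170, 0.00867 and 0.0161 in their deviations, each the highest for its number, and the others at -0.0137 to -0.0027. Values this small do not decide whether the numbers pair the samples. Leaving out 1 array gave 1 to 3 of the 86 RNAs higher and 1 to 2 lower, 112 to 152 of all genes higher and 95 to 165 lower, and 2 to 3 neighbours lower. Without the dimmer 50% of symbols, which leaves fewer genes tested, 14 RNAs were higher and 4 lower, 436 of all genes higher and 707 lower, and 9 neighbours lower. A trend and robust variance gave 14 and 4, 494 and 833, and 10. A pseudocount of 16 gave 4 RNAs lower, 452 and 766 of all genes, and 9 neighbours lower. A level of at least 6 left 5 higher and 1 lower, and a level of 5 in each group left 1 lower. Taking the neighbour by start distance, with only 42 pairs, gave 0 higher and 2 lower. The cause of these differences between settings was not tested. RNAs with 1 probe set, an alternative chosen after seeing the data, gave 8 and 2. The higher share of the 86 RNAs kept its direction: 60 to 69 had a higher mean, with a median of 0.10 to 0.17, in every refit of all 86. The replicate block, the filters on dim symbols and the trend and robust variance could not change it (63, median 0.13). All these refits keep the RNAs whose direction was set by how they met the level.

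Signs turned in 10 named values, none of which passed. Under quantile normalization SNHG17 was 0.034, USP30-AS1 0.020 and URB1 0.0075. With a common median ASB16-AS1 was -0.00067 and USP8 -0.011. Leaving out 1 array, SNHG10 ranged from -0.049 to 0.251, SNHG16 from -0.090 to 0.0024, SNHG17 from -0.055 to 0.016, USP30-AS1 from -0.084 to 0.058, ASB16-AS1 from -0.035 to 0.061, PPP3CA-DT from -0.228 to 0.038, WDR81 from -0.111 to 0.089, AKAIN1 from -0.147 to 0.123, URB1 from -0.106 to 0.038 and USP8 from -0.037 to 0.055. The cause was not tested. With 3 arrays a group, an RNA near background has only a rough value.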
